A study of Sus scrofa with 6 samples.

Results

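The 10 genes described here encode the MCM2-7 replicative helicase and the factors that load and activate it at replication origins: MCM2, MCM3, MCM4, MCM5, MCM6, MCM7, CDC6, CDT1, CDC45 and MCM10. They were taken from the deposited table of 31908 pig gene IDs by gene name, or, for CDT1, whose name was blank, by the gene description. All 10 were found, and the values of the 25 transcripts listed for them were summed per gene. The cells were IPEC-J2, a cultured line of pig gut epithelium. The CON group was given PBS and the CDCA group 50 μM chenodeoxycholic acid (CDCA), a primary bile acid, both for 24 h, with 3 RNA-seq libraries per group. The comparison asks how licensing gene expression stood under a bile acid that the study examined for its effect on epithelial cell proliferation.

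Origin licensing takes place before S phase. The origin recognition complex and CDC6 bind an origin, CDT1 brings in the ring-shaped MCM2-7 complex, and the ring is closed around DNA in an inactive form. At the start of S phase, CDC45 and the GINS complex join the ring to make the active helicase, and MCM10 helps it to unwind DNA. Many of these genes are transcribed with the cell cycle and are known as targets of E2F factors, so their mRNAs are abundant in dividing cells such as those of the intestinal crypt and low in resting cells.

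The listed values were TPM (transcript abundances scaled to a fixed library total), which take transcript length into account, and summed to between 351770 and 366073 per library, whereas a complete set of transcripts sums to 1000000 TPM. The greater part of that total is thus outside the listed values, and transcripts of a gene may be missing from its sum. Read counts were not among the values, so the number of reads behind each TPM was not known here. Of 6 epithelial markers, 5 were listed and 4 reached a mean of 1 TPM (EPCAM, KRT8, KRT18 and CLDN4), with a summed level of 624 to 647 TPM in CON and 1182 to 1322 TPM in CDCA. Most of this difference lay in CLDN4, with a mean of 225 TPM in CON and 806 TPM in CDCA, while KRT8 averaged 226 TPM in CON and 208 TPM in CDCA. CDH1 was listed at 0.465 TPM on average, and the enterocyte markers VIL1, CDX2, FABP2 and LCT summed to 0.13 to 0.90 TPM in any library. Markers of fibroblasts, of leukocytes and of endothelium were summed separately, and each of these sums lay between 0.97 and 2.69 TPM in any library. Of the listed TPM, the 13 mtDNA-encoded mRNAs made up 13.8% to 15.03% in the CON libraries and 2.90% to 3.45% in the CDCA libraries, a difference that the scaling to a fixed total passes on to the TPM of all other genes.

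Compared with the CON group, mRNAs of the licensing factors were significantly lower in the CDCA group. Of the 10 genes, 8 averaged 1 TPM or more across all libraries and were tested by limma on log2(TPM + 1) together with all 8708 gene IDs past this limit. The lowest value of these 8 genes in any CDCA library was 1.94 TPM, so none passed the limit only through the CON group. All 8 fell at a Benjamini-Hochberg FDR under 0.05, against 23.9% of all tested gene IDs that were lower at this FDR. In 6 of them, MCM2, MCM3, MCM4, MCM5, MCM7 and CDT1, the log2 fold change was also below -1, the limit used here to call a gene lower, against 3.90% of all tested gene IDs. The other two, CDC45 and MCM10, fell by less than this limit on the log2(TPM + 1) scale. In each of the 8 genes the CDCA values were all under the CON values, as was so for 27.8% of all tested gene IDs. None of the 8 was higher in CDCA, where 3.51% of all tested gene IDs were called higher and 33.7% had all CDCA values above the CON values. The median log2 fold change of the 8 was -1.69, and that of all tested gene IDs was 0.05. When totals were computed without the mtDNA-encoded genes, the median of all genes shifted by -0.13, the split of calls moved from 306 higher and 340 lower to 221 higher and 449 lower, and all 8 genes were called lower.

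**Figure D1:**
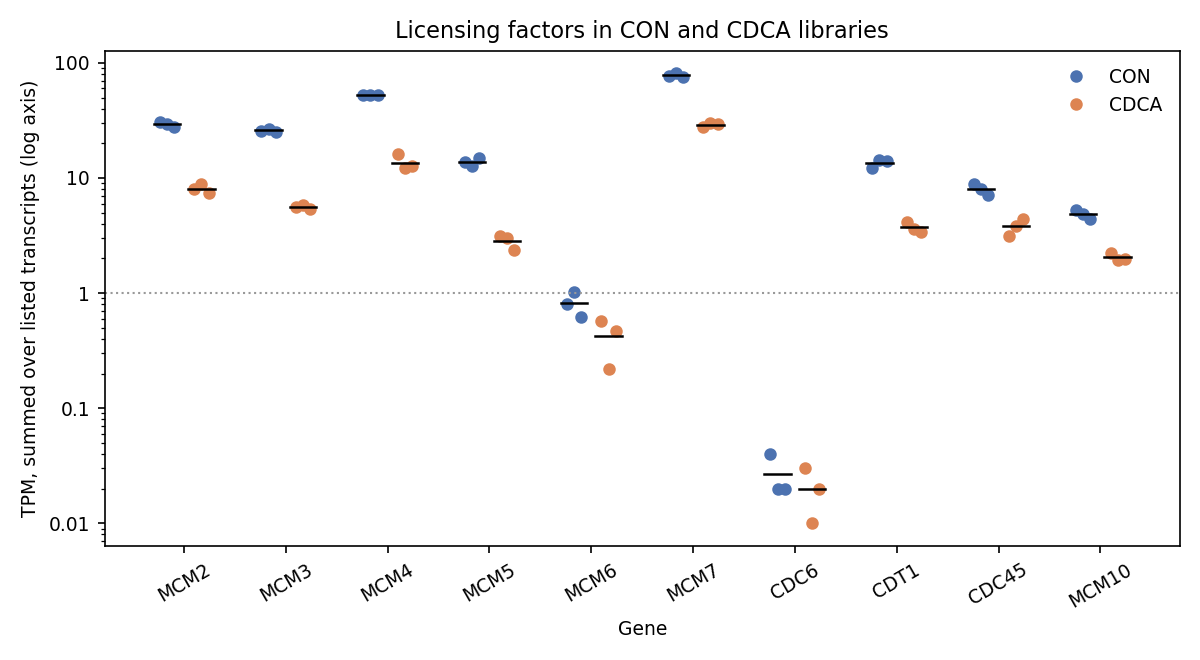
TPM of the 10 licensing genes (log axis) in each CON and CDCA library, with bars at the group means and a dotted line at 1 TPM. In 9 genes the 3 CDCA points lie below the 3 CON points; in CDC6 the groups overlap, and MCM6 and CDC6 lie under the limit for testing.

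The MCM2-7 ring is built from 6 related ATPases that each occur once in the complex. MCM7, its most abundant mRNA, was listed at 77.1, 81.3 and 75.6 TPM in the CON libraries and at 27.9, 29.9 and 29.2 TPM in the CDCA libraries. It was 2.69-fold lower by the ratio of means and had the smallest fall among the tested subunits on the log2(TPM + 1) scale (log2 fold change -1.40, SE 0.05, limma FDR 4.32e-06). MCM4, which forms part of the catalytic core of the helicase with MCM6 and MCM7, was listed at 52.3, 52.2 and 52.7 TPM in the CON libraries, against 16.0, 12.1 and 12.6 TPM in the CDCA libraries. The CON libraries differed from each other by less than 1 TPM, and the fall was 3.86-fold (log2 fold change -1.88, SE 0.10, limma FDR 2.05e-05). MCM2, a subunit that also binds histones, stood at 30.6, 29.6 and 27.9 TPM in the CON libraries, against 7.94, 8.88 and 7.38 TPM in the CDCA libraries. This was a 3.64-fold fall (log2 fold change -1.75, SE 0.08, limma FDR 1.03e-05).

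MCM3 and MCM5 fell the most. MCM3 was listed at 25.8, 26.8 and 24.96 TPM in the CON libraries, against 5.58, 5.83 and 5.35 TPM in the CDCA libraries, a 4.63-fold fall. Its log2 fold change of -2.03 (SE 0.06, limma FDR 2.77e-06) was the 38th lowest of the 8708 tested gene IDs. MCM5, which with MCM2 forms the gate through which the ring opens, was listed at 13.8, 12.8 and 14.97 TPM in the CON libraries, against 3.16, 2.99 and 2.35 TPM in the CDCA libraries. By the ratio of means MCM5 had the largest fall of the tested licensing factors, 4.89-fold, while on the log2(TPM + 1) scale (-1.96, SE 0.11, limma FDR 2.35e-05) it came second to MCM3, since the added 1 TPM weighs more on the weaker gene. MCM3 and MCM5 differed on that scale by less than the SE of MCM5.

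MCM6, the last subunit of the ring, had the lowest TPM of the 6. Its values were 0.80, 1.02 and 0.62 TPM in the CON libraries, against 0.57, 0.22 and 0.47 TPM in the CDCA libraries. The groups did not overlap, but the highest CDCA and the lowest CON library were 0.57 and 0.62 TPM. With a mean of 0.617 TPM it was not tested. In the fits that kept it, without a filter on low values or with the listed TPM rescaled to 1000000, its log2 fold change was -0.35 (limma FDR 0.16) and -0.59 (limma FDR 0.093). CDC6, the ATPase that works with the origin recognition complex to load the ring, had 1 listed transcript, at 0.04, 0.02 and 0.02 TPM in the CON libraries, against 0.03, 0.01 and 0.02 TPM in the CDCA libraries. These groups overlapped, and no change of CDC6 was detectable at such levels. PCNA (mean 0.385 TPM) and TOP2A (mean 0.0833 TPM), which dividing cells also use, were listed as low, and a value covers only the transcripts that the table lists.

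The mRNA pool of the ring was followed by the summed TPM of MCM2 to MCM7, which does not measure the complex itself. Abundant subunits weigh most in it. MCM7 and MCM4 had mean shares of 38.9% and 26.2% in CON, and of 48.8% and 22.8% in CDCA. The sum was 200.4, 203.6 and 196.8 TPM in the CON libraries and 61.2, 60.0 and 57.4 TPM in the CDCA libraries. The group means were 200.3 ± 3.4 (SD, n = 3) and 59.5 ± 1.9 TPM (SD, n = 3), a 3.37-fold difference. An exact permutation test gave p = 0.1 (two-sided), the smallest p that 3 libraries against 3 allow. In bulk RNA, fewer cells in a phase of the cell cycle and less RNA per cell cannot be told apart.

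The make-up of this pool was followed by the share of each subunit in the sum. MCM7 took up 38.5%, 39.9% and 38.4% of the sum in CON and 45.6%, 49.9% and 50.9% in CDCA. The share of MCM3 went from 12.9% ± 0.23 (SD, n = 3) to 9.39% ± 0.31 (SD, n = 3), and that of MCM5 from 6.92% ± 0.67 (SD, n = 3) to 4.75% ± 0.57 (SD, n = 3). For these 3 subunits the groups did not overlap. The shares of MCM2, MCM4 and MCM6 overlapped between the groups. MCM4 held 26.2% in CDCA replicate 1, within the CON range of 25.6% to 26.8%, but 20.2% and 22.0% in the other CDCA libraries.

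To compare the subunits on the log scale, log2(TPM + 1) of each was set against the mean of the ring in the same library. The exact permutation test of the CDCA against CON difference gave p = 0.1 (two-sided) for each of the 6 subunits and 0.1 after Benjamini-Hochberg adjustment, the smallest p that this test can give with 3 libraries against 3, so it cannot tell whether the subunits differed. Relative to the ring mean, MCM7 was higher in CDCA by 0.17, and MCM3 and MCM5 were lower, at -0.47 and -0.40. MCM6, whose low TPM moves little on this scale, entered that mean with a value of 1.21. With MCM6 left out, an alternative chosen after seeing the data, the values were 0.41 for MCM7, -0.23 for MCM3, -0.16 for MCM5 and -0.08 for MCM4, while that of MCM2 turned from -0.19 to 0.05. The exact test then gave p = 0.1, the smallest it can give, for MCM7 and MCM3, and 0.2, 0.5 and 0.6 for MCM5, MCM2 and MCM4.

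**Figure D2:**
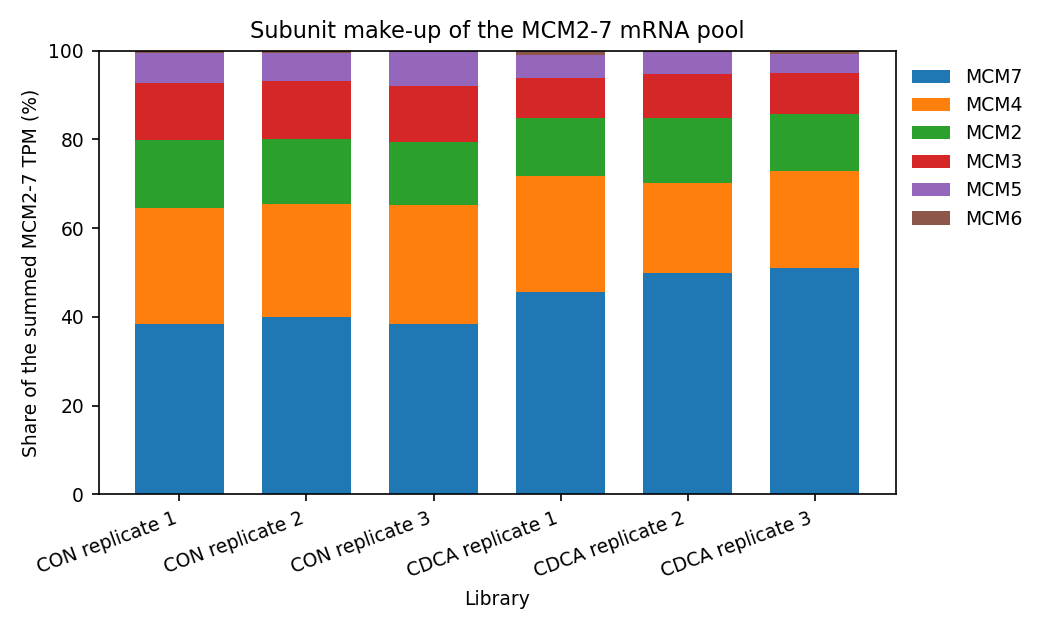
Share of each subunit in the summed MCM2-7 TPM (%) in each library, stacked to 100. The MCM7 share is 38.4% to 39.9% in the CON libraries and 45.6% to 50.9% in the CDCA libraries, and MCM6 is under 1% throughout.

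CDT1 carries the MCM2-7 ring to the origin and is destroyed once S phase begins. Its single listed transcript stood at 12.3, 14.4 and 14.0 TPM in the CON libraries, against 4.18, 3.63 and 3.38 TPM in the CDCA libraries. It was 3.64-fold lower, the same ratio as for MCM2 when rounded (log2 fold change -1.62, SE 0.09, limma FDR 2.94e-05). MCM3, MCM5, MCM4, MCM2, CDT1 and MCM7 all lay within the lowest 1.80% of log2 fold changes over the tested gene IDs.

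The 2 activators fell less. CDC45, which joins the ring at origin firing, was listed at 8.89, 7.96 and 7.18 TPM in the CON libraries, against 3.13, 3.81 and 4.44 TPM in the CDCA libraries, 2.11-fold lower (log2 fold change -0.92, SE 0.12, limma FDR 0.00108). MCM10, needed for the assembled helicase to start unwinding, was listed at 5.31, 4.82 and 4.41 TPM in the CON libraries, against 2.21, 1.94 and 1.99 TPM in the CDCA libraries, 2.37-fold lower (log2 fold change -0.94, SE 0.09, limma FDR 0.000275). The groups of both genes were apart, and their ratios exceeded 2 although the fold change on log2(TPM + 1) stayed above -1. With a pseudocount of 0.1 TPM, the log2 fold changes were -1.07 for CDC45 and -1.20 for MCM10, and both were called lower. Without CDCA replicate 3, CDC45 was called lower as well (-1.01). The difference in size between activators and ring subunits was not tested.

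Of the 25 listed transcripts of the 10 genes, 11 had a mean of at least 1 TPM, and 4 were listed at 0 in every library. In 10 of the 11 the CDCA values were all under the CON values, with ratios of CDCA to CON between 0.204 and 0.518. Of all 12204 listed transcripts with such a mean, 24.3% had all CDCA values under the CON values. The 2 main transcripts of MCM2 took nearly equal parts of the gene, 52.0% and 47.2% in CON and 51.4% and 47.7% in CDCA, and had ratios of 0.271 and 0.277. The exception was the second transcript of CDC45, at 1.86, 3.68 and 1.01 TPM in the CON libraries, against 0, 1.40 and 2.23 TPM in the CDCA libraries. This transcript varied as much within the groups as between them, whereas the other CDC45 transcripts over 1 TPM (ratios 0.402 and 0.518) were lower in every CDCA library. In MCM10, the weakest transcript went the other way, at 0.06, 0.05 and 0.11 TPM in the CON libraries, against 0.27, 0.15 and 0.12 TPM in the CDCA libraries. It held 1.51% of the gene in CON and 8.79% in CDCA, a share that also rises as the other transcripts fall. With a mean of 0.127 TPM it was near the floor, and a change in transcript use was not tested.

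**Figure D3:**
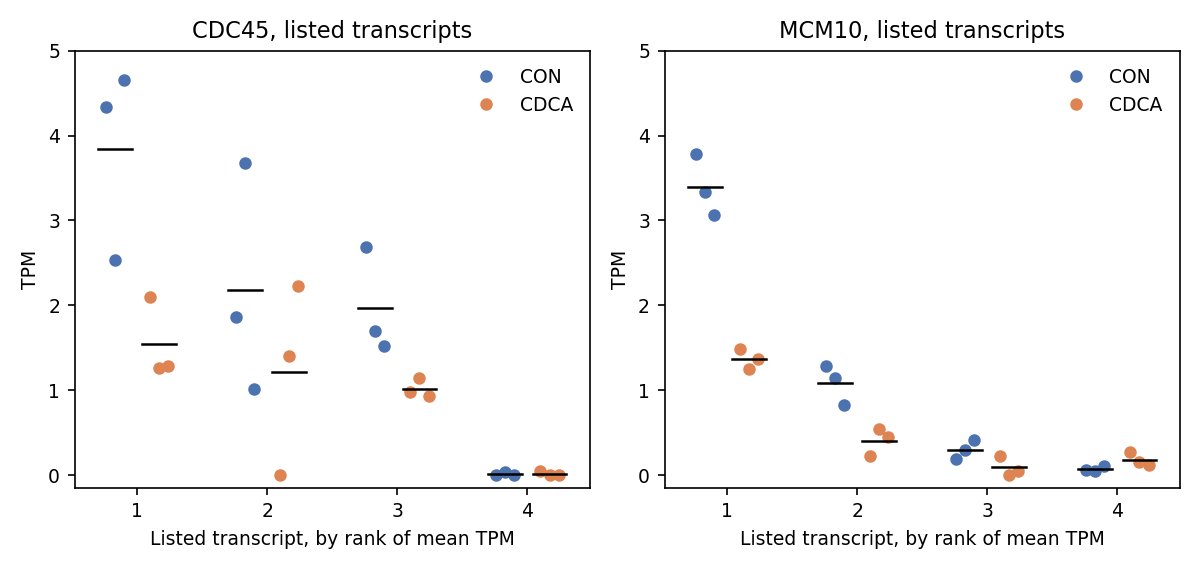
TPM of the listed transcripts of CDC45 and MCM10 in each library, ranked by mean TPM, with bars at the group means; transcripts at 0 in all libraries are left out. The first and the third CDC45 transcripts and the 2 most abundant MCM10 transcripts are lower in every CDCA library, and the second CDC45 transcript overlaps between the groups.

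In the CON group the order of levels in TPM, from the highest, was MCM7, MCM4, MCM2, MCM3, MCM5, CDT1, CDC45, MCM10, MCM6 and CDC6. Neighbours in this order had ranges that did not overlap, except for MCM5 (13.9 ± 1.1 TPM, SD, n = 3) and CDT1 (13.6 ± 1.1 TPM, SD, n = 3). In the CDCA group the first 4 places were the same, followed by CDC45, CDT1, MCM5, MCM10, MCM6 and CDC6. There, CDC45 (3.79 ± 0.66 TPM, SD, n = 3) and CDT1 (3.73 ± 0.41 TPM, SD, n = 3) did not differ beyond their spread. MCM5, level with CDT1 in CON, stood below it in CDCA at 2.83 ± 0.43 TPM (SD, n = 3).

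The rest of the licensing and firing machinery was followed through 33 genes in 5 lists. Of these, 18 were tested: 12 were lower and 2 higher at an FDR under 0.05 by limma, and 3 were called lower, ORC1, MTBP and LRR1. The backgrounds over all tested gene IDs were 23.9% lower and 29.3% higher at this FDR, and 3.90% called lower. The median log2 fold change of the 18 was -0.46. TIMELESS was the only one of them with a CDCA mean under 1 TPM (0.877 TPM) that passed the limit through its CON level.

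The origin recognition list held 5 tested genes, of which 4 fell and 1 was called. ORC1, the subunit whose level follows the cell cycle, was listed at 11.9, 12.2 and 11.0 TPM in the CON libraries, against 3.37, 3.23 and 2.82 TPM in the CDCA libraries. It was 3.72-fold lower (log2 fold change -1.62, SE 0.08, limma FDR 1.77e-05), close in value to CDT1. ORC6 (-0.62) and ORC5 (-0.54) fell less, and LRWD1, which binds the complex on chromatin, had a log2 fold change of -0.31 (limma FDR 0.02) whose FDR was over 0.05 in 3 fits with a library left out (0.067 without CON replicate 2, 0.06 without CON replicate 3 and 0.055 without CDCA replicate 3). ORC3 averaged 5.26 ± 0.45 TPM in CON and 5.55 ± 0.46 TPM in CDCA (SD, n = 3), with a log2 fold change of 0.07 (limma FDR 0.57), and of -0.06 once the mtDNA-encoded genes were left out of the totals. Between them, the ORC subunits ran from a 3.72-fold fall in ORC1 to overlapping groups in ORC3.

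Among the partners of the helicase at the fork, 3 genes were tested and all fell at an FDR under 0.05 without reaching a call. Over the 14 alternative fits, GINS3 was called lower in 6 (log2 fold change -1.30 with a pseudocount of 0.1 TPM), WDHD1 in 4 (-1.10) and TIMELESS in 1 (-1.05). GINS3, a subunit of the GINS complex, went from 4.65 ± 0.37 to 1.83 ± 0.20 TPM (SD, n = 3), and its log2 fold change of -0.995 (SE 0.10, limma FDR 0.000246) lay just inside the limit. WDHD1, which ties the helicase to DNA polymerase alpha, had a log2 fold change of -0.95 and TIMELESS, of the fork protection complex, one of -0.63. Among the firing factors, MTBP, which acts with TICRR to bring CDC45 to the ring, was listed at 7.92, 7.01 and 5.86 TPM in the CON libraries, against 2.10, 1.94 and 2.08 TPM in the CDCA libraries. It was 3.40-fold lower (log2 fold change -1.38, SE 0.11, limma FDR 0.000109). DBF4, the regulatory subunit of the CDC7 kinase that phosphorylates the ring, fell by 0.37 on the log2 scale. DONSON was listed at 3.05, 1.93 and 0.84 TPM in CDCA, both above and below its CON values of 1.40 to 1.67 TPM, and its log2 fold change of 0.13 (limma FDR 0.71) turned to -0.13 without CDCA replicate 1.

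The genes for CDT1 turnover and helicase unloading were split. LRR1, the substrate receptor of the ubiquitin ligase that marks the ring for removal at the end of replication, was listed at 4.69, 3.83 and 3.79 TPM in the CON libraries, against 1.48, 1.13 and 1.58 TPM in the CDCA libraries. It was 2.94-fold lower (log2 fold change -1.09, SE 0.12, limma FDR 0.000433). SKP2, which directs CDT1 to degradation in S phase, fell by 0.85. CUL4A and DDB1, scaffold and adaptor of the ligase that destroys CDT1 at replicating DNA, rose instead. CUL4A went from 4.10 ± 0.29 to 6.39 ± 0.91 TPM (SD, n = 3; log2 fold change 0.53, limma FDR 0.00598). DDB1 went from 44.5 ± 0.66 to 51.9 ± 0.83 TPM (SD, n = 3; log2 fold change 0.22, limma FDR 0.00276), and its log2 fold change was 0.07 after the mtDNA-encoded genes were left out of the totals (limma FDR 0.15). CUL4B had a log2 fold change of 0.12 (limma FDR 0.595), and of -0.06 without CDCA replicate 3.

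The relatives of the MCM subunits held 2 tested genes, of which 1 was lower at an FDR under 0.05. MCM8, an MCM family protein of homologous recombination repair, was listed at 5.93, 5.62 and 5.11 TPM in the CON libraries, against 5.41, 4.97 and 5.25 TPM in the CDCA libraries. The groups overlapped, and the log2 fold change was -0.08 (SE 0.08, limma FDR 0.45), against -1.40 to -2.03 for the tested ring subunits. MCMBP, which binds MCM subunits outside the chromatin, went from 15.2 ± 0.81 to 11.5 ± 2.0 TPM (SD, n = 3; log2 fold change -0.38, limma FDR 0.033), and its FDR was over 0.05 in 8 of 14 alternative fits, at most 0.093 without CON replicate 2. The difference between MCM8 and the ring subunits was not tested.

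**Figure D4:**
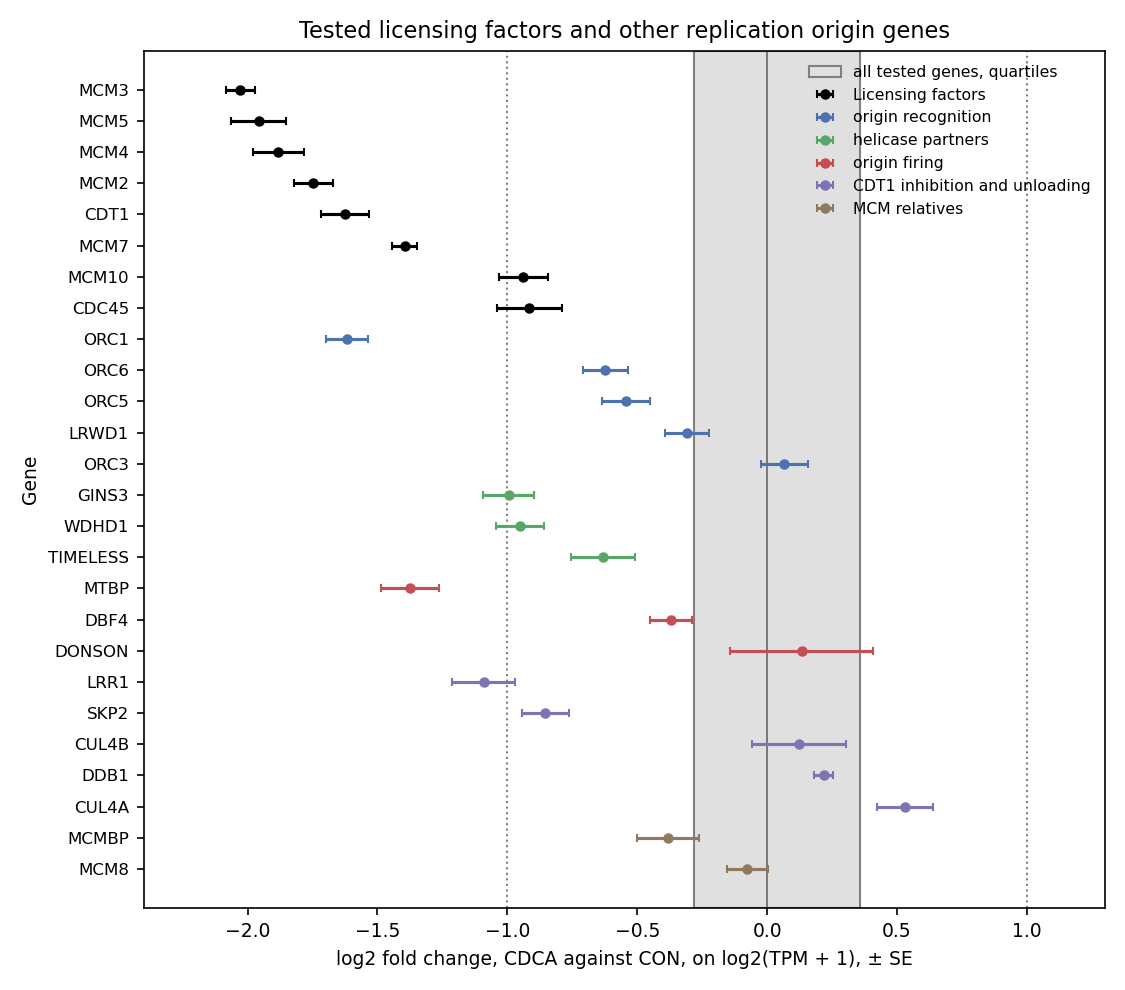
Log2 fold changes of CDCA against CON on log2(TPM + 1), with SE, for the 8 tested licensing factors and 18 other genes in 5 lists; the grey band spans the quartiles of all tested gene IDs and dotted lines mark the limit for a call. The licensing factors run from -2.03 (MCM3) to -0.92 (CDC45), all outside the band, while ORC3, DONSON, CUL4B, DDB1 and MCM8 lie within it.

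MKI67, which encodes a nuclear protein of dividing cells, was set beside these genes as an mRNA marker of proliferation. It averaged 17.3 ± 0.45 TPM in CON and 2.10 ± 0.26 TPM in CDCA (SD, n = 3), 8.23-fold lower (log2 fold change -2.56, SE 0.08, limma FDR 3.70e-06), a larger fall than that of any tested licensing factor. It moved with the licensing factors, and its part in their fall was not tested. For the same dose and time, the study reported a higher proportion of cells taking up the DNA label EdU, and higher viability. It also reported a smaller proportion of cells in S phase. How the MKI67 mRNA level relates to these assays was not tested. PCNA and TOP2A, the other markers of this kind, were too low in the table to be tested.

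The tested genes outside the above lists whose log2(TPM + 1) was most like the mean of the 8 licensing factors over the 6 libraries were NOP14, KPNA2, LYAR, MGME1 and EFTUD2. NOP14 serves in ribosome biogenesis, KPNA2 in nuclear import, MGME1 in mtDNA maintenance and EFTUD2 in splicing. Likeness was ranked by Pearson's r as a description only. The libraries form 2 groups, 370 of the 8708 tested gene IDs had an r over 0.99, and the measure does not depend on the size of the change. LYAR, a nucleolar protein, fell from 72.7 ± 4.8 to 18.8 ± 0.14 TPM (SD, n = 3; log2 fold change -1.89, limma FDR 3.25e-06), in the range of the ring subunits, and EFTUD2 from 62.9 ± 0.56 to 51.8 ± 0.16 TPM (SD, n = 3; log2 fold change -0.27, limma FDR 0.000664).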

How the data were processed

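RNA was sequenced from IPEC-J2 cells in 6 libraries (CON and CDCA, n = 3 each, groups from the sample labels). The authors quantified abundance with RSEM and deposited TPM values per listed transcript, without counts or transcript IDs; the submitters' processing notes name Bowtie 0.12.2 and the mouse build mm10, although the gene IDs are those of the pig, and the annotation release is not given in the sources used here. No coordinates or sequences are therefore given. TPM were summed per gene ID. The members were found by deposited name or description.

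Gene IDs with a mean of at least 1 TPM were compared by limma 3.58.1 with a trend, run in R 4.3.3, on log2(TPM + 1), with Benjamini-Hochberg adjustment over 8708 gene IDs. A gene was called at an FDR under 0.05 and a log2 fold change over 1 in size. The authors used edgeR, which needs counts. On simulated data, 97.5% of 200 genes lowered by 1.5 on the log2 scale had an FDR under 0.05, with 9 unchanged genes of 8575 tested. Of 200 lowered or raised by 0.5 in the like comparison, 70.5% and 63% did (8568 and 8560 tested). The changed genes were drawn only from the more abundant gene IDs, well above the limit of 1 TPM. These rates therefore do not cover weaker genes such as MCM10. The study calls the libraries of a group biological replicates, but the sample labels do not say that they came from separate cultures; if they did not, p-values measure only the spread between these samples, which may be technical. Named were all 10 genes, MKI67, PCNA and TOP2A, the 5 genes of most similar profile, and from each of 5 lists the called genes, the largest fall and rise and those under 1 TPM; other listed genes (ORC5, ORC6, LRWD1, WDHD1, TIMELESS, DBF4, SKP2, DDB1, CUL4B, MCM8) were named after their values were seen. The genes and lists were chosen with earlier results of these data known. Alternatives were another pseudocount, no filter, 3 scalings, the highest transcript, no trend, the replicate number as a block, and each library left out.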

Additional observations from a re-analysis of the deposited data

How the results depend on the processing

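The 8 tested licensing factors were lower with an FDR under 0.05 in all 112 recomputed values over 14 alternative settings of the limma fit, and between 6 and 8 of them were called lower. Their median log2 fold change of -1.69 was -1.85 with a pseudocount of 0.1 TPM, -1.51 with no filter on low values, which brings in MCM6 and CDC6, and -1.82 when the mtDNA-encoded genes were left out of the totals. Of the other licensing genes, 3 of 18 tested were called lower. This was 7 of 18 with a pseudocount of 0.1 TPM, 6 of 19 without the mtDNA-encoded genes, 7 of 25 with the listed TPM rescaled to 1000000, and 3 to 5 of 18 or 19 with a library left out (5 without CON replicate 3 or without CDCA replicate 2). These counts include genes that were under the limit of 1 TPM before. They were RECQL4 without the mtDNA-encoded genes, without CDCA replicate 1 and without CDCA replicate 2, and GINS2 and RECQL4 after rescaling. RECQL4 (mean 1.63 TPM in CON, 0.307 TPM in CDCA) and GINS2 (1.26 TPM in CON, 0.247 TPM in CDCA) passed only through their CON level. The limit thus selected for a fall in them, and their calls carry no weight. The cause of the other shifts was not tested. Over all gene IDs, 340 of 8708 were called lower, against 505 of 8708 with a pseudocount of 0.1 TPM, 449 of 8694 without the mtDNA-encoded genes and 481 of 10947 after rescaling; 306 were called higher, against 509 with that pseudocount and 523 after rescaling. The value of MCM2 relative to the ring mean turned from -0.19 to 0.0547 with MCM6 left out, the log2 fold change of ORC3 turned from 0.07 to -0.0639 without the mtDNA-encoded genes, and with each library left out DONSON lay between -0.13 and 0.44 and CUL4B between -0.058 and 0.24. The summed TPM of the ring in CDCA was between 0.267 and 0.302 of that in CON under every scaling and with each library left out. Libraries with the same replicate number did not deviate together (r across genes -0.09 to -0.04, against -0.03 to 0.07 for other pairs), so the numbers were not used as pairs. With the replicate number as a block, 343 gene IDs were called lower, 6 of the licensing factors and 3 of the other licensing genes among them, and MCMBP had an FDR of 0.064. Values under 1 TPM, those of MCM6 and CDC6 included, are the least reliable, and without read counts their counting error is unknown.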

Other observations

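Of the 33 other licensing and firing genes, 15 had a mean under 1 TPM and were not tested. In 4 of them the CDCA values were all under the CON values, and in 1 all above; over the tested gene IDs, which these are not among, the shares were 27.8% and 33.7%. RECQL4, a helicase that takes part in origin firing, was listed at 1.81, 1.65 and 1.42 TPM in the CON libraries, against 0.28, 0.52 and 0.12 TPM in the CDCA libraries. GINS2 was listed at 1.02, 1.54 and 1.23 TPM in the CON libraries, against 0.47, 0.12 and 0.15 TPM in the CDCA libraries. Both were close to the limit for testing and missed it through their CDCA values. CDC7, the kinase activated by DBF4, was listed at 0.51, 1.31 and 1.75 TPM in the CON libraries, against 0.34, 0.43 and 0.47 TPM in the CDCA libraries. DTL, which recognises CDT1 for the CUL4 ligase, was at 0.58, 0.51 and 0.34 TPM in the CON libraries, against 0.05, 0.14 and 0.17 TPM in the CDCA libraries.

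CLSPN, a replication checkpoint mediator, was the 1 gene of the 15 in which all CDCA values exceeded the CON values, at 0.14 to 0.25 TPM against 0 to 0.1 TPM. GMNN, the inhibitor that holds CDT1 inactive after S phase begins, overlapped between the groups, at 0.36, 0.46 and 0.78 TPM in the CON libraries, against 1.02, 1.3 and 0.59 TPM in the CDCA libraries. ORC4 was listed at 0 in 2 CON libraries and at 1.71 and 1.91 TPM in 2 CDCA libraries, with 0.62 and 0.40 TPM in the other one of each group. ORC2, GINS4 and TIPIN were listed at 0 in 5 of 6 libraries, and GINS1, TOPBP1, TICRR, CUL1 and MCM9 overlapped between the groups at means of 0.178 to 0.51 TPM.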
